A study of Mus musculus with 8 samples.

Results

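The genes of tight junctions, cadherin junctions and desmosomes were described in adult mouse oviducts after neonatal treatment with genistein (Gen), a soy phytoestrogen. They were found by gene name among the noncontrol probes of the arrays, as every claudin (Cldn), tight junction protein (Tjp) and cadherin (Cdh) gene whose symbol goes on with a number, together with Ocln, F11r, Jam2, Jam3, Epcam, Dsp, Jup, Pkp1, Pkp2, Dsc2 and Dsg2. This gave 93 of 41174 probes, for 57 of the 27962 gene names on the array, 20 of which had more than 1 probe. No probe carries the name Epcam.

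Female CD-1 mice received corn oil (control) or Gen in corn oil at 50 mg/kg/day by injection from PND1 to PND5. At 6–8 weeks of age the mice of both groups were superovulated and mated. Oviducts were taken on day 2 of pregnancy (GD2), which is 48 hr after human chorionic gonadotropin (hCG), and freed of embryos. Each of the 8 arrays (4 per group) held RNA of an independent biological replicate. The paper states 1 mouse per replicate for its adult real-time PCR samples, and each array is taken here as 1 mouse. All 4 control arrays were on the same slide and all 4 Gen arrays on a different one, and the effects of slide and treatment cannot be told apart. In whole oviducts, fewer cells of a type and less RNA per cell cannot be told apart either.

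Epithelial cells are held together by junctions along their lateral membranes. At the tight junction, claudins form the strands that seal the space between cells or open it to certain ions, occludin and the junctional adhesion molecules sit beside them, and the Tjp (zonula occludens) scaffolds tie them to actin. Below it, cadherins bind like molecules on the neighboring cell through calcium-dependent contacts, and desmosomes anchor keratin filaments through desmosomal cadherins, plakophilins, plakoglobin and desmoplakin. In the oviduct these junctions join the ciliated and secretory cells of the lining that surrounds the embryo.

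Of the 57 genes, 38 had a probe well above background on all 8 arrays, a call that the scanner software makes for each spot. A further 4 were well above background on at least 4 arrays (Cdh20, Cdh26, Cldn14 and Cldn19). These 42 genes, with 61 probes, were tested with limma, with Benjamini-Hochberg adjustment over all 29555 probes that met the same minimum. Another 8 genes were well above background on 1 to 3 arrays and 7 on no array, and these 15 were not tested. The 7 were Cdh9, Cdh17, Cdh18, Cdh19, Cdh23, Cldn16 and Cldn17. Values below are signals, that is linear intensities scaled so that the 75th percentile is the same on every array, and of several probes for a gene, the one brightest on average stands for it. A log2 fold change is always Gen minus control.

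At a limma adjusted p under 0.05, Cdh16 (kidney-specific cadherin) fell after Gen treatment, the 1 gene called among the 38 with a probe well above background on all 8 arrays. Cdh26 brought the count to 2 of the 42 tested genes. It was well above background on 0 of 4 control arrays and met the minimum through the Gen arrays alone, so its call is not independent of that minimum. Over all tested probes 0.9% passed this threshold, 0.494% higher and 0.406% lower. At an unadjusted p under 0.01, 9 of the 42 genes passed, 2 higher (Cdh26 among them) and 7 lower, where 7.16% of all tested probes did, 3.82% higher and 3.33% lower. Without scaling between arrays 4 genes passed, 3 higher and 1 lower, where 1999 of all 29555 tested probes did. The 7 lower genes were Cldn3, Cldn7, Cldn22, Cldn23, Cdh4, Cdh13 and Cdh16, and the 2 higher were Cldn2 and Cdh26. In the same 9 genes the signals of the 4 Gen-treated mice did not overlap those of the 4 controls, and 12.3% of all tested probes had such a separation. The median log2 fold change was -0.12 over the 42 genes and 0.02 over all tested probes. The sign of the former was not stable. It was 0.12 without scaling, when that of all tested probes was 0.26, and with 1 array left out it ran from -0.11 to 0.052 (0.052 without Gen replicate 3, -0.0017 without Gen replicate 2 and -0.0046 without control replicate 2).

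**Figure D1:**
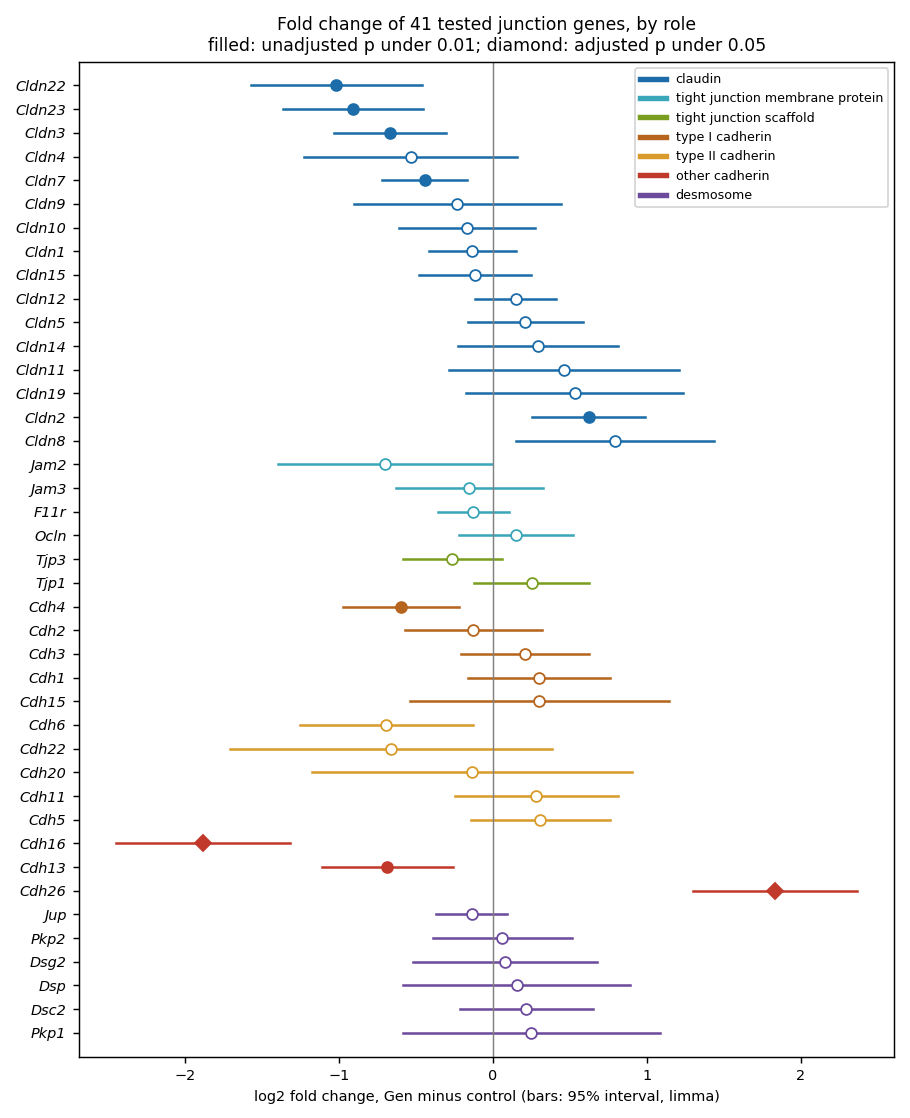
The log2 fold change (x axis, Gen minus control, with its 95% interval from limma) is shown for 41 of the 42 tested genes, grouped and colored by role. Diamonds, the mark for an adjusted p under 0.05, stand only at Cdh16 (-1.88) and at Cdh26, which is plotted at its fitted value although its control spots were not well above background, and the desmosome genes lie between -0.14 and 0.25.

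The probes of the called genes are shown by their first bases, since all values of these genes rest on 1 probe each. The first 30 of 60 bases are given, with positions on the genome build of the array design (mm7). The Cdh16 probe lies at chr8:103213504-103213563 on the minus strand and the Cdh26 probe at chr2:178987867-178987926 on the plus strand.
Cdh16 probe: agacattatcacaggcatgtccccaaagcc
Cdh26 probe: tatgaggggcatgatttgggaaattgatca

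Claudins were the largest group, with 16 tested genes. None passed the adjusted threshold, while 5 had an unadjusted p under 0.01, 4 of them lower and 1 higher in Gen-treated mice. Over all tested probes 7.16% had such a p, 3.33% lower and 3.82% higher. Without scaling between arrays, most of the junction genes at this p were higher instead. The median log2 fold change of the 16 was -0.13, and 9 were negative. With 1 array left out the median ran from -0.17 to -0.029, and without scaling it was 0.12.

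Cldn3, which seals the space between epithelial cells, had signals of 59360, 86280, 57760 and 74180 in the controls and 49710, 37270, 43620 and 42540 in the Gen-treated mice. Every Gen-treated mouse was below every control. The log2 fold change was -0.67 (SE 0.16, 95% interval -1.03 to -0.31, n = 4 per group, limma adjusted p = 0.0888).
Cldn7, a claudin of the lateral membrane of epithelial cells, had signals of 39820, 49410, 43890 and 37960 in the controls and 28370, 34430, 33370 and 29460 in the Gen-treated mice. Its groups did not overlap either, with a log2 fold change of -0.44 (limma adjusted p = 0.117, SE 0.12).
Cldn22 gave the lowest value of the claudins. Its signals were 10070, 6994, 5347 and 6511 in the controls and 3411, 2480, 4693 and 3691 in the Gen-treated mice, so that the log2 fold change was -1.02 (SE 0.24; adjusted p = 0.0905 by limma). The lowest control was close to the highest Gen-treated mouse.
Cldn23 had signals of 2179, 2920, 2124 and 1789 in the controls and 1133, 915, 1542 and 1217 in the Gen-treated mice. The log2 fold change was -0.91 (limma adjusted p = 0.0743, SE 0.20), and the groups were apart.

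Cldn2, which forms channels for small cations and water, stood on the other side. Its signals were 2462, 2744, 2439 and 3463 in the controls and 3606, 5272, 4166 and 4022 in the Gen-treated mice. All 4 Gen-treated mice were above all controls, with a log2 fold change of 0.62 (limma adjusted p = 0.106, SE 0.16). Cldn8, a sealing claudin of tight epithelia, had the highest claudin value, 0.79 (limma adjusted p = 0.190, SE 0.28). Control replicate 1 (6506) lay within the Gen-treated range of 5449–7014, and the other controls were at 2486–3555. Without that mouse the log2 fold change of Cldn8 was 1.07 (limma adjusted p = 0.038), the only setting run in which Cldn8 passed.

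The other named claudins did not pass the test. For Cldn4, whose product binds clostridial enterotoxin as that of Cldn3 does, the log2 fold change was -0.54 (95% interval -1.22 to 0.15), with signals of 652–1411 in the controls and 528–1063 in the Gen-treated mice. For Cldn1 it was -0.13 (-0.42 to 0.15) and for Cldn10, which forms paracellular ion channels, -0.17 (-0.61 to 0.27). Cldn5, the claudin of blood vessel endothelium, had 0.21 (-0.17 to 0.58) and Cldn11, known from myelin and Sertoli cells, 0.46 (-0.29 to 1.21). Among these intervals that of Cldn11 was the widest, with Gen replicate 1 at 828 and the other Gen-treated mice at 249–468. Cldn6, a claudin of embryonic epithelia, was well above background on 0 of 4 control and 3 of 4 Gen arrays and was not tested. Its signals overlapped, at 13.8–26.0 in the controls and 16.8–39.4 in the Gen-treated mice, and control arrays needed higher signals for this call. Its geometric mean signals were too close to background for a bound on the fold.

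**Figure D2:**
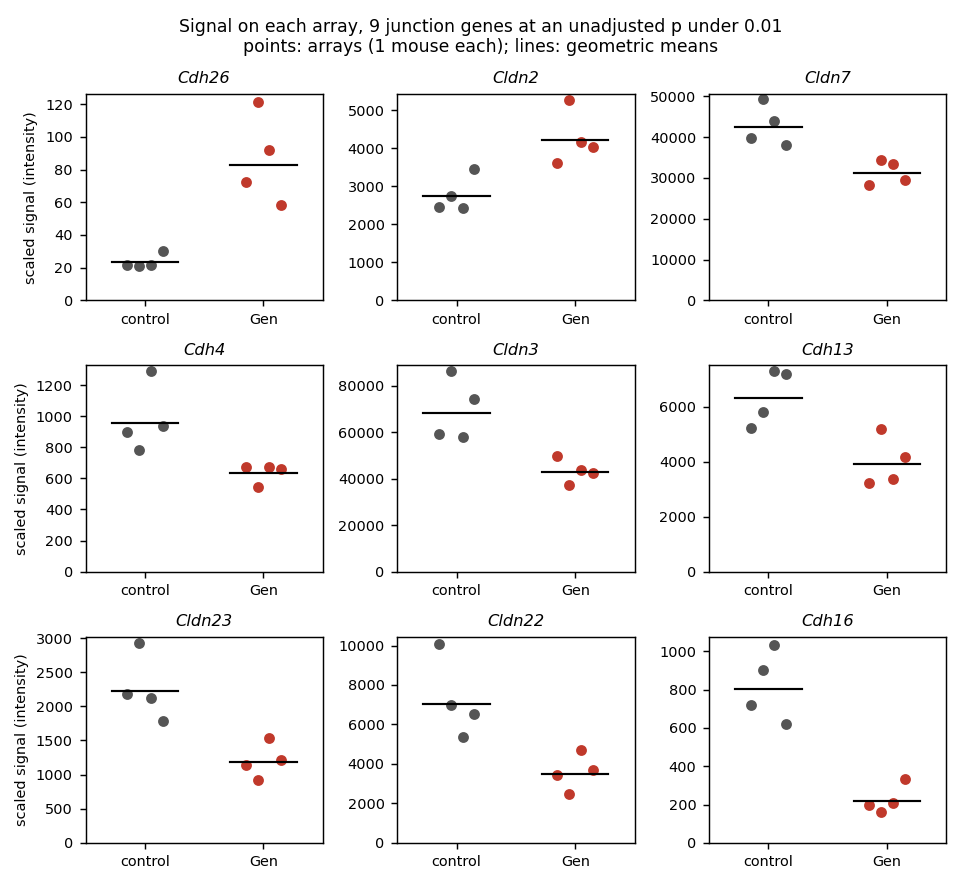
Scaled signal (y axis, linear intensity from 0) on each array is plotted for the 9 genes at an unadjusted p under 0.01, with 1 point per mouse and a line at the geometric mean of each group. The groups are apart in every panel, but the genes were chosen on these same values. Relative to the signal, the gaps are widest for Cdh16 (619–1034 in controls, 163–336 in Gen) and Cdh26 (20.9–30.2 and 58.5–121). The control spots of Cdh26 were not well above background.

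Upstream sequences are shown for claudins with lower values after Gen and for Cdh26, because repressors of the Snai and Zeb families are known to bind E-boxes of the form CAGGTG near epithelial junction genes. The sequences are the 250 bases before the annotated start, from RefSeq on GRCm38.p6, on the plus strand, for Cldn7 at chr11:69965171-69965420, Cldn3 at chr5:134985964-134986213 and Cdh26 at chr2:178430265-178430514. Capitals mark CAGGTG on either strand (CACCTG on the other).
Cldn7: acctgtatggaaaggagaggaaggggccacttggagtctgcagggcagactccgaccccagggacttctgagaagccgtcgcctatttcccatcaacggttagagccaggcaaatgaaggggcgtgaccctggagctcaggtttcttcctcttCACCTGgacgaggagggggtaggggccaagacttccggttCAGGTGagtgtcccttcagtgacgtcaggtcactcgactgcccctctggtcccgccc
Cldn3: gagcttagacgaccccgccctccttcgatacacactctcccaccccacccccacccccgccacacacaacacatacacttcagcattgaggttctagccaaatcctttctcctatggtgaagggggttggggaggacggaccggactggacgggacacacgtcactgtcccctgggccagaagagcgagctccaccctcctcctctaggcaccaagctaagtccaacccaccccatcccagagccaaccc
Cdh26: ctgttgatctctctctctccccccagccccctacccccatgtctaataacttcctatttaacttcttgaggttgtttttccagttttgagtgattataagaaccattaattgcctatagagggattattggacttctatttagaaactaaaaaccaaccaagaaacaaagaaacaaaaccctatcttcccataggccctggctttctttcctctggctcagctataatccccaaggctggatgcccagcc
The Cldn7 window shown held the motif 2 times, beginning 97 and 57 bases before the start. A second annotated Cldn7 start, with a window at chr11:69964529-69964778, had none, and neither did the windows of Cldn3, Cdh26, Cldn2 and Cldn22. Of the 6 windows found for genes at an unadjusted p under 0.01, 1 (16.7%) thus held it. The table of starts covered 36 of the 57 genes with 48 windows, of which 10 (20.8%) held the motif, against 17.2% of all 32851 windows of that length. The genes with it were Cdh7, Cldn4, Cldn6, Cldn7, Cldn14, F11r, Ocln and Tjp3. The letters AACCGGTT, a site of Grhl factors, were in none of the 48 windows and in 0.116% of all windows, and a match describes the sequence only.

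None of the 4 tight junction membrane proteins other than claudins passed the test. F11r (junctional adhesion molecule A) had signals of 82440–91190 in the controls and 72720–89710 in the Gen-treated mice, for a log2 fold change of -0.13 (95% interval -0.36 to 0.10). Ocln (occludin) gave 0.15 (-0.22 to 0.52) and Jam3 -0.15 (-0.63 to 0.32). Jam2, an adhesion molecule best known from endothelium, had the largest value of the 4. Its signals were 23710, 45800, 37070 and 35750 in the controls and 27420, 11990, 23280 and 26870 in the Gen-treated mice, with a log2 fold change of -0.70 (95% interval -1.40 to -0.01, limma adjusted p = 0.258). Control replicate 1 lay within the Gen-treated range, and a second Jam2 probe gave -0.62. The probe for Tacstd1, an older symbol of Epcam by its RefSeq accession, fell outside the name rule and had a log2 fold change of -0.17 (limma adjusted p = 0.575, SE 0.15).

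None of the scaffolds passed the test either. Tjp3 gave -0.26 (95% interval -0.59 to 0.06). Tjp1 (zonula occludens 1) gave 0.25 (-0.12 to 0.63) at the brightest probe and -0.10 at the second.

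Of the 13 cadherin genes tested, Cdh16 passed the adjusted threshold, and so did Cdh26, which met the minimum through the Gen arrays alone. Over all tested probes 0.9% passed. Cdh16 fell. It encodes a cadherin with a short cytoplasmic tail that is known from kidney tubules and other epithelia that express Pax8. Its signals were 720, 901, 1034 and 619 in the controls and 200, 163, 207 and 336 in the Gen-treated mice. Every Gen-treated mouse was well below the lowest control, and the probe was well above background on all 8 arrays. The log2 fold change was -1.88 (SE 0.25, 95% interval -2.45 to -1.32), which is 3.68-fold lower, with a limma adjusted p of 0.0304. A two-sided exact permutation test gave p = 0.0286, the smallest that 4 against 4 arrays allow. Any gene whose groups do not overlap gets this value, so it adds nothing to that separation. The adjusted p was above 0.05 without control replicate 3 (0.0805), Gen replicate 1 (0.0641), Gen replicate 2 (0.0581) or Gen replicate 3 (0.0598), while the log2 fold change stayed between -2.09 and -1.74. With all 8 arrays the adjusted p of Cdh16 was 0.0913 by the methods' t-test and 0.131 with the replicate number as a block, and under 0.05 in the other settings run. Pax8, one of the epithelial markers, had a log2 fold change of -0.28 (limma adjusted p = 0.398).

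Cdh26, a cadherin studied mainly in airway and esophageal epithelium, was well above background on 0 of 4 control and 4 of 4 Gen arrays. Its signals were 21.7, 20.9, 21.5 and 30.2 in the controls and 72.2, 121, 92.1 and 58.5 in the Gen-treated mice. It was at least 2.05-fold higher in Gen-treated mice, taking for each control array the lowest signal well above background or the probe's own signal, whichever was higher, with geometric mean signals of 23.3 and 82.8. The limma adjusted p was 0.0304, in a test it entered through the Gen arrays alone. The call is near the background of the scan, and control arrays needed higher signals than Gen arrays to be well above background. With normexp background correction the bound was 1.29-fold and the adjusted p 0.111, and with low signals raised to a common floor the adjusted p was 0.345. By the methods' t-test it was 0.084 and with the replicate number as a block 0.125. Without control replicate 3 it was 0.0821, without Gen replicate 1 0.0603, without Gen replicate 3 0.0598 and without Gen replicate 4 0.0603.

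Of the other cadherins, Cdh13 and Cdh4 were lower at an unadjusted p under 0.01. Cdh13 (T-cadherin), which lacks a transmembrane domain and binds adiponectin, had signals of 5208, 5785, 7289 and 7199 in the controls and 3225, 5194, 3383 and 4177 in the Gen-treated mice. The log2 fold change was -0.68 (limma adjusted p = 0.116, SE 0.18), and the groups were only just apart, with Gen replicate 2 next to the lowest control. Cdh4 (R-cadherin), a type I cadherin, had signals of 900, 781, 1290 and 936 in the controls and 674, 543, 676 and 658 in the Gen-treated mice. Its log2 fold change was -0.60 (limma adjusted p = 0.120, SE 0.16), a second probe gave -1.33 (limma adjusted p = 0.161), and the groups were apart at both. At the second probe control replicate 2 was at 398 and the other controls at 89–129.

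Cdh1 (E-cadherin), the main adhesion molecule of epithelial cells, had signals of 24820, 15190, 22210 and 23000 in the controls and 26180, 19060, 29530 and 29830 in the Gen-treated mice. The groups overlapped, with a log2 fold change of 0.30 (95% interval -0.16 to 0.76, limma adjusted p = 0.451). Cdh2 (N-cadherin), typical of mesenchymal and neural cells, gave -0.13 (-0.57 to 0.32) and Cdh3 (P-cadherin), found in basal epithelial cells, 0.21 (-0.21 to 0.62). Among the type II cadherins, Cdh5 of endothelium gave 0.31 (-0.14 to 0.76) and Cdh11 of mesenchyme 0.28 (-0.25 to 0.81). Cdh6, known from the developing kidney, gave -0.69 (-1.25 to -0.13, limma adjusted p = 0.190), with signals of 123–210 in the controls and 68.0–144 in the Gen-treated mice that overlapped.

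The desmosome genes were 6, and none passed the test or had an unadjusted p under 0.01. Their median log2 fold change was 0.12, or -0.089 without Gen replicate 4. Dsp (desmoplakin), the plakin that links the plaque to keratin, had signals of 19440, 15470, 12790 and 18530 in the controls and 21480, 9914, 16880 and 30410 in the Gen-treated mice. Gen replicate 2 was the lowest and Gen replicate 4 the highest of all 8 mice, and the log2 fold change of 0.15 had a 95% interval from -0.58 to 0.89. Pkp1, a plakophilin of stratified epithelia, gave 0.25 (-0.59 to 1.09), with the same mice at its ends (1588 and 5806). Pkp2 gave 0.06 (-0.39 to 0.51), Dsc2 (desmocollin 2) 0.22 (-0.22 to 0.65), Dsg2 (desmoglein 2) 0.08 (-0.52 to 0.67) and Jup (plakoglobin) -0.14 (-0.37 to 0.09).

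Within the Gen group the mice differed from each other in the desmosome genes. Relative to the control mean, all 6 genes were below it in Gen replicate 2, with a median log2 deviation of -0.51, while in Gen replicate 4 only 1 of 6 was below it and the median was 0.61. In Gen replicates 1 and 3 the medians were 0.13 and 0.02. Such differences were not particular to the desmosome genes. The 5 type II cadherins had medians of -0.20 in Gen replicate 2 and 0.71 in Gen replicate 4. The 4 tight junction membrane proteins had medians of -0.52 in Gen replicate 2 and 0.05 in Gen replicate 4. For the claudins no Gen-treated mouse had a median deviation beyond -0.20 or 0.14.

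**Figure D3:**
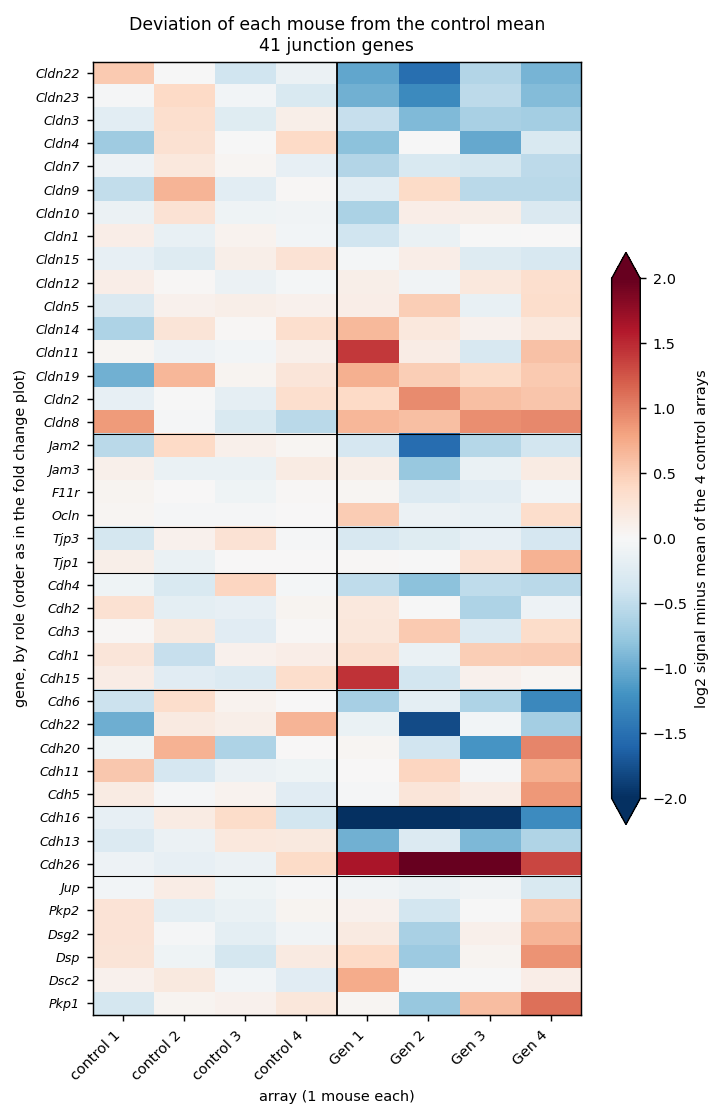
Color gives the log2 signal of each mouse (columns) minus the mean of the 4 controls for 41 of the 42 tested genes (rows, grouped by role as in the fold change plot). Cdh16 and Cdh26 differ in all 4 Gen-treated mice, while Dsp, Pkp1 and Dsg2 are lowest in Gen 2 and highest in Gen 4.

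Probes of the same gene did not always give the same value. For Dsg2, 2 neighboring probes gave -0.90 and -0.91 (limma adjusted p = 0.270 and 0.267), whereas the brightest probe and another gave 0.08 and 0.19. The first 2 probes were high in control replicates 3 and 4 (481–635) and at 160–278 in the other controls. Gen-treated mice were at 117–248 there. For Cdh11 2 probes gave 0.30 and 0.28 and the third -0.36, and for Dsp the 4 probes ran from -0.39 to 0.15. The other genes with several tested probes, apart from Tjp1, had probes of the same sign.

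**Figure D4:**
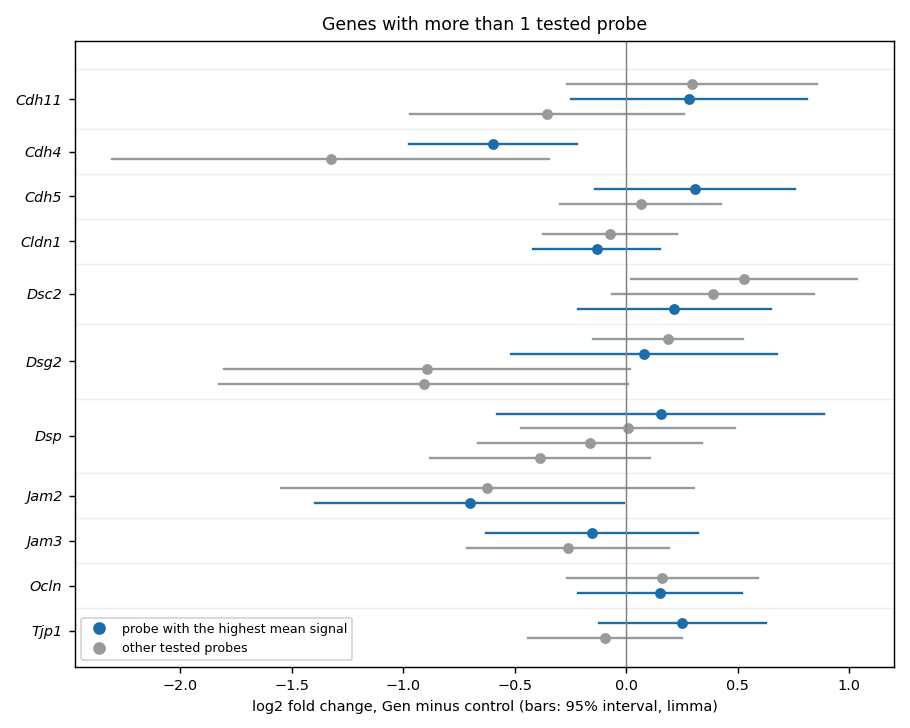
The log2 fold change (x axis, Gen minus control, with 95% interval) is shown for each tested probe of genes with more than 1, the probe with the highest mean signal in blue and the others in gray. Probes lie on both sides of 0 for Cdh11, Dsg2, Dsp and Tjp1.

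Partners and regulators of these junctions were taken from a further list of adherens junction, tight junction and desmosome partners and of transcription and splicing factors that act on epithelial junctions. Of 70 such genes with a probe 61 were tested, and 0 passed a limma adjusted p under 0.05, where 0.9% of all tested probes did. An unadjusted p under 0.01 was reached by 2 (7.16% of all tested probes) and one under 0.05 by 9 (19% of all tested probes). The median log2 fold change was 0.02. The 5 with the smallest p-values are named. Amotl1 (angiomotin-like 1), a tight junction partner, gave -0.60 (limma adjusted p = 0.106, SE 0.15), and its second probe -0.17. Grhl2, a transcription factor that activates Cdh1 and claudin genes, gave -0.46 (limma adjusted p = 0.137, SE 0.14) at its brightest probe and -0.75 and -1.03 at its others. Klf5, a factor of epithelial proliferation, gave -0.63 (limma adjusted p = 0.190) and Grhl1, which acts on desmosomal genes, 0.64 (limma adjusted p = 0.196). Zeb2, a repressor of Cdh1, gave 0.36 (limma adjusted p = 0.196) at its brightest probe and values on both sides of 0 at the others.

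Markers of other cell types were set beside these values. The summed signals of the 10 oviduct epithelial markers lay at 1065000–1232000 in the 4 controls and at 916600–1284000 after Gen, so that the groups overlapped. None (0 of 10) passed the adjusted threshold, and their median log2 fold change was -0.02. A sum weighs the brightest markers most, here Ovgp1 (411800–655000 over the 8 arrays). Single markers went both ways. Krt19 gave -0.47 with the groups apart (limma adjusted p = 0.139) and Krt8 -0.31, while Spint2 gave 0.54 and Krt7 0.34. The sums of 12 ciliated cell, 7 smooth muscle, 6 stromal, 9 endothelial, 4 mesothelial, 4 glial and 10 stratified squamous markers overlapped too. Summed leukocyte markers were apart, 10890–14070 in controls and 18860–29050 in Gen-treated mice, with 1 of 7 (Mzb1) called higher. The brightest was Adgre1, at 6103–7572 in controls and 8922–13310 after Gen. Ptprc, Cd79b and Mzb1 were apart too, while Cd3e (-0.01), Cd68 (0.40) and Cd79a (0.73) overlapped between the groups. Summed markers of ovarian steroidogenic cells were apart as well, 3231–28160 and 31750–140400, with 0 of 6 tested called. Their median log2 fold change was 2.85. Control replicate 3 was at 28160 and the other controls at 3231–5377. Star, Fshr and Lhcgr overlapped between the groups. Cyp19a1 and Lhcgr were well above background on 0 control arrays, which needed higher signals for this than the Gen arrays. The part of these cells in the values of the junction genes was not tested.

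Fitting all probes without the minimum changed the counts. Then 16.2% of 41173 probes were called, and 13 of the 57 junction genes, 2 higher and 11 lower. Of the 21 junction probes that were well above background on no array 17 were called, all 17 lower. On the whole array 4997 of 7860 such probes were called, 4996 of them lower. Cldn2 (limma adjusted p = 0.0403), Cldn3 (0.0287), Cldn22 (0.0277), Cldn23 (0.0241) and Cdh13 (0.0466) passed in that fit. Those 7860 probes had a median log2 fold change of -1.16. Without scaling between arrays the median log2 fold change of all tested probes was 0.26 in place of 0.02, and the values of Cldn1, Cldn10, Cdh2, F11r, Jam3 and Jup turned from negative to positive (0.07 to 0.11).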

How the data were processed

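Oviduct RNA, taken here as that of 1 mouse per array, was hybridized to 8 arrays with 1 dye, 4 control and 4 Gen by the sample labels. Per the file headers, the deposited files come from Agilent Feature Extraction 9.5. Its processed signals are linear intensities, corrected by the authors' software for background and for spatial trends but not across arrays. A series table with identical intensities for all 45018 spots of each array was also deposited. The authors' later Rosetta Resolver step was not applied.

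Log2 values of the deposited intensities were averaged over the spots of a probe without outlier spots, and each array was set to the mean 75th percentile. No column of per-sample values was left out. Probes well above background on at least 4 of 8 arrays, counted without regard to group, were tested with limma 3.58.1 in R 4.3.3 (lmFit and eBayes, Benjamini-Hochberg). A fit without this minimum, used earlier on these data, is an alternative, because dim probes are lower together on the Gen slide and relax the adjustment for all others. The data.table package (version 1.17.8), Python 3.11.15 and matplotlib 3.10.9 were used. On simulated arrays with 29555 probes, 66% of 2-fold and 87% of 4-fold changes were recovered, with 7 false calls. The simulated noise was normal and independent between probes, without a slide effect, so these figures leave out that part of the design.

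Arrays had 25390–28946 (control) and 29534–31481 (Gen) probes well above background, and correlations between arrays were 0.967–0.988. No junction probe was saturated. The number of arrays limits the precision. Named were genes called or with an unadjusted p under 0.01, the 8 largest changes, a fixed list of well-known members, genes with a bound, and 5 further junction genes by p. The members and lists were chosen with earlier results of these data known. Same-numbered mice did not deviate together (correlations from -0.13 to 0.04, 0 of 4 over 0.1), so the numbers were not used as pairs. Some differently numbered mice did so more. The correlation was 0.27 for control replicate 1 with Gen replicate 4 and 0.25 for control replicate 3 with Gen replicate 2. It was 0.24 for control replicate 4 with Gen replicate 1 and 0.10 for control replicate 2 with Gen replicate 3. All other pairs were at 0.083 or lower. The test was unpaired, and the reason was not tested. Alternatives were other scaling, background correction, minimum and floor, keeping outlier spots, a robust fit with intensity trend, the methods' t-test, a replicate block, the mean of a gene's probes and each array left out. Of these, the fit of the probes well above background in all 4 arrays of a group, Tacstd1 counted as Epcam, the bounds, the counts at an unadjusted p and the medians were added after the data were seen. RefSeq accessions of 68 of the 93 probes were found among the reference names. Exon positions of the probes were not analysed here, as no mm7 genome was used. A gene of the set is counted among the members but not reported or plotted here.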

Additional observations from a re-analysis of the deposited data

Results flagged for a closer look

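In 5 of the 68 groups of 4 mice tested among the named genes, 1 mouse was far from the other 3, with a gap to the nearest mouse above Dixon's 95% critical share of the group's range. Chance gives about 1 in 20 such groups. For Cdh26, control replicate 4 had a signal of 30.2 and the other controls 20.9–21.7. For Cdh4, Gen replicate 2 was at 543 and the others at 658–676. For Cldn10, control replicate 2 was at 27860 and the others at 21070–21680. For Cldn5, control replicate 1 was at 9284 and the others at 12090–12330. For Jup, Gen replicate 4 was at 1395 and the others at 1592–1636.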

How the results depend on the processing

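The count of junction genes called (2) and of junction probes called (2) was 13 and 24 in the fit of all probes, 1 and 1 with probes well above background on all 8 arrays, with normexp and with a floor, and 0 and 0 by the methods' t-test and with the replicate block. It was 2 with quantile normalization, without scaling, with outlier spots kept and with an intensity trend. Of all 29555 tested probes these 4 settings called 238, 1025, 262 and 407, against 266 in the main fit. Normexp called 486, the floor 163 and the methods' t-test 11, and the fit of all probes 6674 of 41173. With 1 array left out the count of genes ranged from 0 to 3 and that of probes from 0 to 3, and was 0 without control replicate 3, Gen replicate 1 or Gen replicate 3. The fits with 1 array left out called 2 to 275 of all 29555 tested probes. The count at an unadjusted p under 0.01 (9) was 15 in the fit of all probes, 4 without scaling (3 higher, 1 lower) and 5 to 8 with 1 array left out, 5 without control replicate 3. Over the whole array this p was reached by 7077 of 41173 probes in the fit of all probes. It was reached by 1999 of 29555 without scaling and by 1318 to 2349 with 1 array left out, against 2115 in the main fit. The further junction genes called (0) were 4 in the fit of all probes and 0 elsewhere. Under the replicate block 3 of all probes were called. The bound of Cdh26 (2.05-fold) was 1.29-fold with normexp and 1.81- to 2.41-fold with 1 array left out. Among genes that did not pass the test, the log2 fold change turned without scaling for Cdh2 (0.11), Cldn1 (0.11), Cldn10 (0.071), F11r (0.11), Jam3 (0.088) and Jup (0.10), with normexp for Dsg2 (-0.0013) and Pkp2 (-0.037), and with the mean of a gene's probes for Dsg2 (-0.38) and Dsp (-0.10). With 1 array left out it ranged from -0.24 to 0.033 for Cdh2, -0.12 to 0.32 for Dsg2, -0.093 to 0.45 for Dsp, -0.26 to 0.051 for Jam3, -0.036 to 0.59 for Pkp1 and -0.10 to 0.20 for Pkp2. The cause was not tested. Probes near background limit what can be said of Cdh26 and of the 15 genes not tested.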
